A study of Mus musculus with 7 samples.

Results

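The NRF2 antioxidant response genes described here are 10 genes, namely the transcription factor gene Nfe2l2, its inhibitor gene Keap1 and the effector genes Gclc, Gclm, Slc7a11, Gpx2, Txnrd1, Srxn1, Nqo1 and Hmox1. They were chosen by name with measured values of these same arrays already known, so their values below are a description and no support is drawn from their choice. A probe was found through RefSeq accessions for 9 of the 10 genes, 1 probe each, among 34967 gene probes that cover 13971 named genes. Slc7a11, the cystine importer of the set, had no matched probe and is not measured here. All 9 probes were called good, that is, above background, on all 7 arrays.

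The study asked what ERα and ERβ contribute to normal and carcinogen-exposed mammary gland development, and glands of female mice aged 4 weeks were kept in serum-free organ culture and measured on CodeLink Mouse Whole Genome arrays, a 1-colour platform. For the 3 groups of the study, RNA of 5 mice was pooled and put on 1 array, and all 7 arrays are single, so no difference below has a replicate check and no p-value can be given. The 3 groups were αERKO glands, lacking a functional Esr1 gene, βERKO glands, lacking a functional Esr2 gene, both on a C57BL6/129SV background, and C57 wild-type (WT) glands with 7,12-dimethylbenz[a]anthracene (DMBA), a polycyclic hydrocarbon carcinogen, all after 24 days of culture. The other 4 arrays hold WT C57 glands without DMBA after 10 days and after 24 days, and wild-type Balb/c glands after 24 days with and without vitamin D5, whose dose is not in the labels. A culture of 24 days was 10 days of growth promotion in a hormone mixture and 14 days of regression in insulin, and the shared protocol gives DMBA at 2 µg/ml on day 3 for 24 h. The titles of both knockout arrays do not name DMBA, but the study describes its glands of all 3 genotypes as cultured with the carcinogen. Neither do the titles of both Balb/c arrays, for which exposure rests on the shared protocol text alone. The labels give 2 pretreatments for every array. They are 1 µg estrogen with 1 mg progesterone over 9 days and 25 ng EGF with 1 mg progesterone over 5 days. For the 4 arrays outside the 3 groups, the one used is not known. The study describes the glands of its 3 groups as EGF-pretreated. Its methods count αERKO among the groups collected for arrays, yet also say that αERKO glands, being free of lesions, gave no material for molecular work. Its discussion, however, describes array RNA from αERKO glands without lesions. The study's own accounts thus differ on this point, and every αERKO value below rests on the label of that array. The WT and βERKO glands the study describes carried alveolar lesions and the αERKO glands carried none, so lesion and genotype cannot be told apart on the αERKO array. The C57 controls do not share the mixed background of the knockouts, so strain and deleted gene cannot be told apart in those comparisons.

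NRF2, the product of Nfe2l2, is a transcription factor that KEAP1 holds in the cytoplasm and passes to a ubiquitin ligase for degradation. Electrophiles and oxidants modify cysteines of KEAP1, NRF2 then builds up in the nucleus, and with small MAF proteins it binds antioxidant response elements in the promoters and enhancers of genes for glutathione synthesis, thioredoxin recycling, quinone reduction and haem breakdown. NRF2 activity is set largely by the stability of the protein, which an array does not measure. In the mammary gland this programme is best known for detoxifying carcinogens such as the quinones and epoxides formed from polycyclic hydrocarbons.

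The start-site windows of the genes, from RefSeq on GRCm38.p6 and running from 250 bases before to 50 after each annotated start, were searched on both strands for TGACNNNGC, the core letters of the antioxidant response element. The windows of 8 of the 10 members were in the table (all but Hmox1 and Gclc). These 8 have 10 windows, since Txnrd1 has 3. The core was present in 4 of the 10 windows (1 each of Gclm, Srxn1, Txnrd1 and Nfe2l2), against 12.4% of all 32851 windows. The variant TGAGNNNGC was found in 2 of 10 (Srxn1 and Slc7a11), against 17.6% of all windows. The AP-1 letters TGACTCA, which can overlap TGAGNNNGC, were found in 1 of 10 (Srxn1), against 5.20% of all windows, and lay there inside a TGAGNNNGC match in 1 case. A match of letters is a description and not a binding site, and the windows do not reach the distal enhancers of these genes. The 4 windows with the TGACNNNGC core are shown because they belong to members whose signals are given below, with matches to either core in capitals and the strand of the gene read 5′ to 3′.
Srxn1, chr2:152105274-152105573, plus strand: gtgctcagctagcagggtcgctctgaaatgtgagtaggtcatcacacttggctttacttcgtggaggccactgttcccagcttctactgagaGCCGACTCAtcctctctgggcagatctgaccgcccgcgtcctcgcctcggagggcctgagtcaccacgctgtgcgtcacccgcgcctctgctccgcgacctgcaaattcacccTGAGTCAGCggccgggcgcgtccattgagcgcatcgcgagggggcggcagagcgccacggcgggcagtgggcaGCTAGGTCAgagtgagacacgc
Gclm, chr3:122245307-122245606, plus strand: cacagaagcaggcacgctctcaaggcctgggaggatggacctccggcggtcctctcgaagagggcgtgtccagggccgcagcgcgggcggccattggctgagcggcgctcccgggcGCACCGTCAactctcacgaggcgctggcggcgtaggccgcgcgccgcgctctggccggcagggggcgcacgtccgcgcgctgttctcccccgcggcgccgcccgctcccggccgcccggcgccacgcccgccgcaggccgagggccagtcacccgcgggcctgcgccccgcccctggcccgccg
Txnrd1, chr10:82858956-82859255, plus strand, 1 of 3 annotated starts: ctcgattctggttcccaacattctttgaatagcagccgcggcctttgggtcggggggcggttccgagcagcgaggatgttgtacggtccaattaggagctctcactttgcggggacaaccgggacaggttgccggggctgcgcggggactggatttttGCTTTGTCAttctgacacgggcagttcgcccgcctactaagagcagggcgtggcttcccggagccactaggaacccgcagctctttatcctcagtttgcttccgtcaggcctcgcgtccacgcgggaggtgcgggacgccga
Nfe2l2, chr2:75704614-75704913, minus strand: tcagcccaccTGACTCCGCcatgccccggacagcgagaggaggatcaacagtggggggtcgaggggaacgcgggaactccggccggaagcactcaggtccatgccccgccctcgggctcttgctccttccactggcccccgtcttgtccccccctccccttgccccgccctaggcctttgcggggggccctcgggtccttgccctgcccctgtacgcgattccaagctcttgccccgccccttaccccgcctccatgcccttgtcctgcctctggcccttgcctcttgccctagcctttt
The Srxn1 window holds 3 matches, of which 1 lies downstream of the start site, from 29 to 37. Counted from the start site, the Gclm match begins at position -134, that of Txnrd1 at -92 and that of Nfe2l2 at -240. The windows of Nqo1, Keap1 and Gpx2 and the other windows of Txnrd1 hold neither core in these letters.

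Values are log2 normalized intensities, that is, log2 of a probe's background-subtracted intensity over the median intensity of all gene probes on its array. The spread of a log2 ratio was taken from pairs of probes for 1 accession that were good on each array of the comparison. The SD lay between 0.19 and 0.45 for pairs of arrays without αERKO and between 0.56 and 0.67 for pairs with it, and it covers probe error only, not the variation between mice. The arrays had between 68.4% and 74.2% of their gene probes called good, and median intensities between 39.1 and 53.0 over a local background between 80 and 83. The Esr2 probe was good on the array labelled βERKO, at 0.87, which puts the label in doubt, so this array is called the array labelled βERKO throughout. The doubt rests on 1 dim probe, and whether that probe lies in the disrupted part of the gene is not known. Its signal therefore does not settle whether the label is right. On the WT array with DMBA the Esr2 probe was near background, but so it was on the αERKO, WT 10-day and both Balb/c arrays. Its low value there therefore says little about the label of the WT array with DMBA. The possible mismatch is seen only on the array labelled βERKO, and every direction drawn from that array carries the doubt. Whether the WT array with DMBA is itself mislabelled cannot be told from this probe, so its directions are read with caution as well. The Esr1 probe was near background on the αERKO array but also on 4 of the other arrays, so it checks that label only weakly.

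Gpx2, which encodes a glutathione peroxidase typical of epithelia, had the widest span of the members. Its log2 normalized intensity was -0.04 for αERKO, 7.09 on the array labelled βERKO, 5.29 on the WT array with DMBA, 8.09 on the WT 10-day array, 7.78 on the WT 24-day array without DMBA, 7.92 on the Balb/c array and 7.83 on the Balb/c array with vitamin D5. In raw terms the αERKO spot had an intensity of 38, close to the median of its array, where the WT 10-day spot had 12701. The αERKO array thus stood far below the other 6, the WT array with DMBA stood alone between, and the 4 arrays of wild-type glands whose titles name no DMBA lay within 0.31 of each other. From lowest to highest array the difference was 281-fold, which ranked the probe 12th of the 18695 gene probes good on all arrays by range. That fold and rank rest on the dim αERKO spot, so they depend on how background is handled, as the αERKO comparisons below show.

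Gclc and Gclm encode the catalytic and modifier subunits of glutamate-cysteine ligase, the first and rate-limiting step of glutathione synthesis. The Gclc signal was 3.06 for αERKO, 6.82 on the array labelled βERKO, 4.50 on the WT array with DMBA, 6.82 on the WT 10-day array, 6.96 on the WT 24-day array without DMBA, and 6.53 on the Balb/c array both without and with vitamin D5. That of Gclm, in the same order, was 2.89, 7.53, 6.18, 7.87, 7.65, 7.61 and 7.50. For both subunits the αERKO array was lowest and the WT array with DMBA next, each separated from its neighbours by more than the SD of the ratio. For Gclm, the other 5 arrays formed a group in which no neighbours in the order differed by more than that SD. For Gclc, the Balb/c array with vitamin D5 lay 0.29 below the WT 10-day array, above the SD of 0.19 for that pair, and the remaining steps were smaller than the SD.

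Txnrd1 encodes cytosolic thioredoxin reductase and Srxn1 encodes sulfiredoxin, which repairs overoxidized peroxiredoxins. The Txnrd1 signal was 2.14 for αERKO, 5.75 on the array labelled βERKO, 4.53 on the WT array with DMBA, 5.68 on the WT 10-day array, 6.01 on the WT 24-day array without DMBA, 5.22 on the Balb/c array and 5.19 on that with vitamin D5. Srxn1, in that order, had signals of 0.94, 6.16, 3.93, 5.59, 6.34, 5.29 and 5.15. Both again had the αERKO array lowest and the WT array with DMBA next. Above these, both Balb/c arrays lay together and below the C57 arrays without DMBA, and the Srxn1 range over the 4 arrays other than the study's was 1.19 against 0.31 for Gpx2.

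Nqo1 encodes NAD(P)H quinone dehydrogenase 1, which reduces quinones in a single step and avoids the semiquinone radical. Its signal was 0.47 for αERKO, 6.49 on the array labelled βERKO, 4.34 on the WT array with DMBA, 6.90 on the WT 10-day array, 6.09 on the WT 24-day array without DMBA, 6.38 on the Balb/c array and 6.68 on the Balb/c array given vitamin D5. The span was 86.3-fold, with the αERKO and the WT array with DMBA again at the bottom, and it too rests on a dim αERKO spot. Nqo1 is also a known target of the aryl hydrocarbon receptor, to which DMBA binds. Hmox1 encodes haem oxygenase 1, which breaks haem down to biliverdin, iron and carbon monoxide. The Hmox1 signal was 2.62 for αERKO, 8.80 on the array labelled βERKO, 7.32 on the WT array with DMBA, 8.53 on the WT 10-day array, 9.13 on the WT 24-day array without DMBA, 8.39 on the Balb/c array and 7.85 on the Balb/c array given vitamin D5. The step from αERKO to the next array, 4.70, was by far the largest in this order, while the WT array with DMBA lay only 0.53 below the next. The intensity of the Hmox1 spot was 241 on the αERKO array and 25121 on the WT 24-day array without DMBA.

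The regulators moved less than the effectors. Nfe2l2 had a signal of 4.42 for αERKO, 5.94 on the array labelled βERKO, 5.22 on the WT array with DMBA, 5.58 on the WT 10-day array, 5.69 on the WT 24-day array without DMBA, 5.10 on the Balb/c array and 5.39 on the Balb/c array with vitamin D5. Keap1, in that order, had 2.74, 4.54, 4.47, 4.79, 4.12, 4.13 and 3.91. The span was 2.86-fold for Nfe2l2 and 4.15-fold for Keap1, against between 14.5-fold and 281-fold for the 7 measured effectors, and without the αERKO array it was 0.84 and 0.88 on the log2 scale. In both orders the αERKO array was lowest, and the WT array with DMBA stood within the range of the arrays of glands without DMBA in their titles. 

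**Figure D1:**
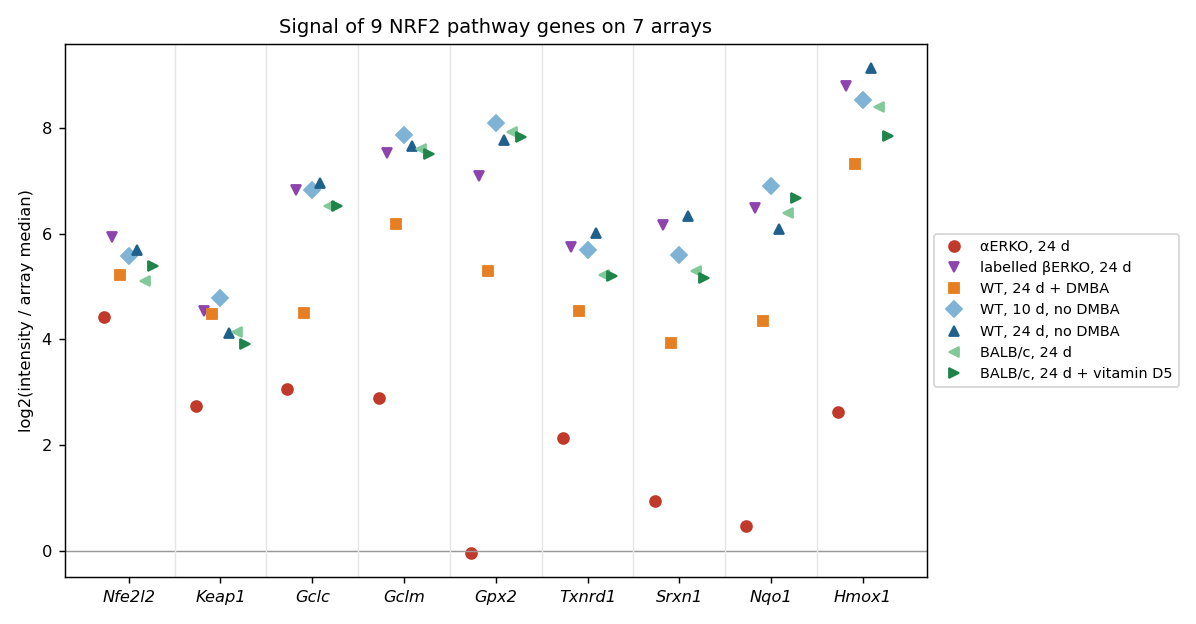
Log2 normalized intensity (vertical axis) of the probes of 9 members (horizontal axis, regulators first) on each of 7 single arrays, 1 point per array and no error bar since no array is repeated. The red αERKO points are the lowest for every member, and the orange WT points with DMBA lie next for the 7 effectors but not for Nfe2l2 and Keap1.

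The αERKO array was the lowest of the 7 for 9 of 9 members, where 38.5% of all probes good on every array had it lowest. The order with αERKO lowest and the WT array with DMBA lowest of the rest was held by 7 of 9 members, against 15.7% of those probes, and Nfe2l2 and Keap1 were the exceptions. Of 84 other genes of the pathway lists that were good on all arrays, 44 had αERKO lowest (52.4%) and 28 held the full order (33.3%). Because members were taken with these values known, the shares describe how the set behaves and test nothing. The array labelled βERKO fell inside the range of the 4 remaining arrays for 7 of 9 members and for 29 of the 84 other pathway genes. It lay below that range for Gpx2 and above it for Nfe2l2.

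Between WT glands cultured for 24 days with and without DMBA, all 7 measured effectors were lower with DMBA. Gpx2 was 5.59-fold lower, Gclc 5.50-fold, Srxn1 5.31-fold, Hmox1 3.50-fold, Nqo1 3.36-fold, Txnrd1 2.79-fold and Gclm 2.77-fold. Nfe2l2 had a log2 ratio of -0.47 and Keap1 one of 0.35, both within 2-fold and slightly beyond the SD of 0.31. Thus 7 of 9 members were over 2-fold lower and 0 higher, with 8.46% of all probes kept (good on 1 or both arrays) over 2-fold lower and 10.1% higher. The median log2 ratio of the members was -1.75, beside -0.13 over all probes. Exposure lay early in the culture, on day 3, and the RNA was taken at day 24, so the values describe glands long after the treatment. The pretreatment of the glands without DMBA is not known, and the study's WT glands with DMBA carried lesions. Pretreatment, lesions and DMBA therefore cannot be told apart in this comparison. Esr2 was near background on the WT array with DMBA, as it was on the WT 10-day and both Balb/c arrays. On the WT 24-day array without DMBA it was good, at -0.55. The comparison rests on the label of the WT array with DMBA. With the array labelled βERKO put in its place, a reading tried after the data were seen, 0 of 9 members were over 2-fold lower or higher than without DMBA, where 6.90% of all probes were lower and 8.24% higher, and the members' median was -0.14. Under that reading the αERKO values against WT and against βERKO given below would change places, and those of βERKO against WT would turn sign.

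Cell type markers moved in the same comparison. Summed normalized intensities of 10 luminal epithelial markers were 686 on the WT array with DMBA and 1480 without it, and 6 of 10 were over 2-fold lower, with a median log2 ratio of -1.10. Those of 6 fibroblast markers were 203 with DMBA and 12.4 without, 6 of 6 over 2-fold higher, and those of 5 measured macrophage markers were 344 and 193, with 4 of 5 higher. Endothelial markers were over 2-fold higher in 5 of 5 kept (sums of 46.5 and 9.00) and adipocyte markers in 4 of 6 (1930 and 1180). With the array labelled βERKO in place of the WT array with DMBA, 0 of 10 luminal markers were over 2-fold lower (sum of 1060, median -0.54), and 3 of 6 fibroblast, 1 of 5 macrophage, 2 of 5 endothelial and 3 of 6 adipocyte markers were higher. The macrophage sum was then 160, below the 193 without DMBA. Of skeletal muscle markers, 6 of 8 kept were then over 2-fold higher and 1 lower (median 2.04). With the WT array with DMBA, 1 of 6 kept was higher and 1 lower. The part of cell composition in the result was not tested. In bulk tissue fewer cells of a type and less RNA per cell cannot be told apart. The array with DMBA had 74.2% of gene probes good and a median intensity of 51.5, and that without had 71.2% and 44.9.

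Against the WT array with DMBA, αERKO had 8 of 9 members over 2-fold lower and 0 higher, where 14.1% of all probes were lower and 11.7% higher (11.8% and 13.5% after scaling to the 75th percentile). Gpx2 was 40.5-fold lower, the 7th lowest ratio of 22065 probes good on both arrays, Hmox1 25.9-fold lower (16th), Nqo1 14.7-fold lower and Gclm 9.79-fold lower. Smaller differences were those of Srxn1, at 7.95-fold lower, Txnrd1, at 5.22-fold, and Gclc, at 2.73-fold. Keap1 was 3.30-fold lower, and Nfe2l2, with a log2 ratio of -0.80 against an SD of 0.59, was within 2-fold. The αERKO spots of Gpx2 and Nqo1 were dim, at intensities of 38 and 54 over a local background of 81, and with the normexp background correction their log2 ratios were -4.32, from -5.34, and -3.17, from -3.88. The members' median was -2.99, and that of all probes was -0.09.

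The αERKO array also carried the largest departures in tissue markers. Skeletal muscle markers summed to 2410 on it, against 54.9 on the array labelled βERKO and between 11.1 and 13.9 on the other 5, where between 5 and 8 of the 10 were good, and all 10 measured ones were over 2-fold higher than on the WT array with DMBA. Erythroid markers summed to 582 (3 measured, 2 of them good) against between 3.30 and 37.5 elsewhere, and lymphocyte markers to 72.2 against between 12.0 and 14.6. Luminal markers summed to 593, with 4 of 10 over 2-fold lower than on the WT array with DMBA and a median log2 ratio of -0.85, and all 10 were still called good. Basal and myoepithelial markers summed to 107 against 273, with 5 of 6 over 2-fold lower and a median log2 ratio of -1.43. Macrophage markers summed to 106 against 344, with 4 of 5 over 2-fold lower and a median log2 ratio of -2.50. The part of these tissue differences in the members' values was not tested.

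**Figure D2:**
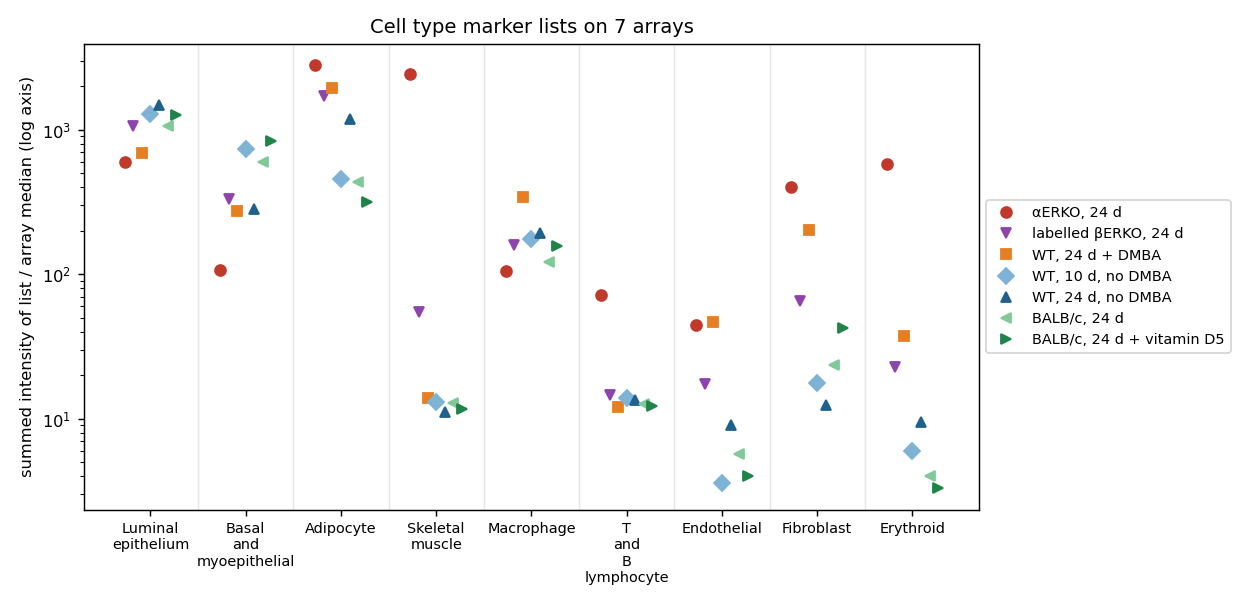
Summed normalized intensity (log axis) of each cell type marker list on the 7 single arrays. The αERKO array stands apart for skeletal muscle (2410), erythroid (582) and lymphocyte (72.2) markers, and it and the WT array with DMBA hold the lowest luminal sums (593 and 686).

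With the doubt left by its Esr2 signal, the array labelled βERKO had 7 of 9 members over 2-fold higher than the WT array with DMBA and 0 lower, where 6.96% of all probes were higher and 8.37% lower. The differences were 4.98-fold for Gclc, 4.70-fold for Srxn1, 4.44-fold for Nqo1, 3.48-fold for Gpx2, 2.79-fold for Hmox1, 2.55-fold for Gclm and 2.33-fold for Txnrd1. Nfe2l2 had a log2 ratio of 0.72 and Keap1 one of 0.08, the latter within the SD of 0.37. The median was 1.48 for the members and 0.09 for all probes. This comparison and both preceding ones share the WT array with DMBA, so a low value on that array enters each of them, and their counts are not independent. Luminal markers had a median log2 ratio of 0.53 here, with 1 of 10 over 2-fold higher, while 5 of 6 fibroblast markers were over 2-fold lower (median -1.49), 5 of 5 endothelial ones (median -1.39) and 4 of 5 macrophage ones (median -1.70). Skeletal muscle markers were over 2-fold higher in 6 of 7 kept (median 2.40). The part of these marker lists in the result was not tested.

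Set against the array labelled βERKO, αERKO had the lower signal for every member, and 9 of 9 were past 2-fold. Of all probes, 16.6% were lower and 13.5% higher (12.8% and 16.2% after scaling to the 75th percentile). Gpx2 was 141-fold lower, the second lowest of 21480 probes good on both, followed by Hmox1 at 72.3-fold, Nqo1 at 65.3-fold and Srxn1 at 37.3-fold. Gclm was 25.0-fold, Gclc 13.6-fold and Txnrd1 12.1-fold lower, which leaves the regulators, Keap1 at 3.48-fold and Nfe2l2 at 2.86-fold, with the smallest differences. With normexp the log2 ratios of the 3 members with dim αERKO spots were nearer 0, -5.94 for Gpx2, -5.12 for Nqo1 and -4.53 for Srxn1. The median was -4.64 for the members and -0.18 for all probes. Luminal markers had a median of -1.43 and 7 of 10 were over 2-fold lower, and 4 of 6 basal and myoepithelial markers were lower (median -1.55). Skeletal muscle markers were over 2-fold higher in 10 of 10, fibroblast markers in 6 of 6 (median 2.16), lymphocyte markers in 5 of 7 kept (median 3.94) and endothelial markers in 3 of 5 (median 1.13). Their part was not tested.

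No member passed 2-fold with culture time or with vitamin D5. From 10 to 24 days in WT glands without DMBA, 0 of 9 members were over 2-fold higher and 0 lower, where 6.05% of all probes were higher and 6.34% lower. Within that limit Srxn1 was 1.69-fold and Hmox1 1.51-fold higher at 24 days, and Nqo1 was 1.75-fold and Keap1 1.60-fold lower, all beyond the SD of 0.23, while Gclc, Gclm and Nfe2l2 lay within it. Over the same time, 5 of 6 adipocyte markers were over 2-fold higher (median 2.35), as were 2 of 5 macrophage and 2 of 5 endothelial markers. Of 6 basal and myoepithelial markers 4 were lower and 1 higher (median -1.31), and 0 of 10 luminal markers passed 2-fold (median 0.13). Their part was not tested. In Balb/c glands, 0 of 9 members passed 2-fold with vitamin D5, where 5.12% of all probes were higher and 7.06% lower. Hmox1 was 1.46-fold lower with vitamin D5, Nqo1 1.23-fold and Nfe2l2 1.22-fold higher, and the other 6 members differed by less than the SD of 0.23.

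Between the 24-day arrays of Balb/c and of C57 glands without DMBA in the title, the strains differed in some members. Srxn1 had a log2 difference of -1.05 (Balb/c less C57), Txnrd1 -0.78, Hmox1 -0.73, Nfe2l2 -0.59 and Gclc -0.44, all beyond the SD of 0.33. Gpx2, Nqo1, Gclm and Keap1 differed by less than that SD. Whether the Balb/c glands received DMBA is not in their titles, so strain and exposure cannot be told apart here.

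**Figure D3:**
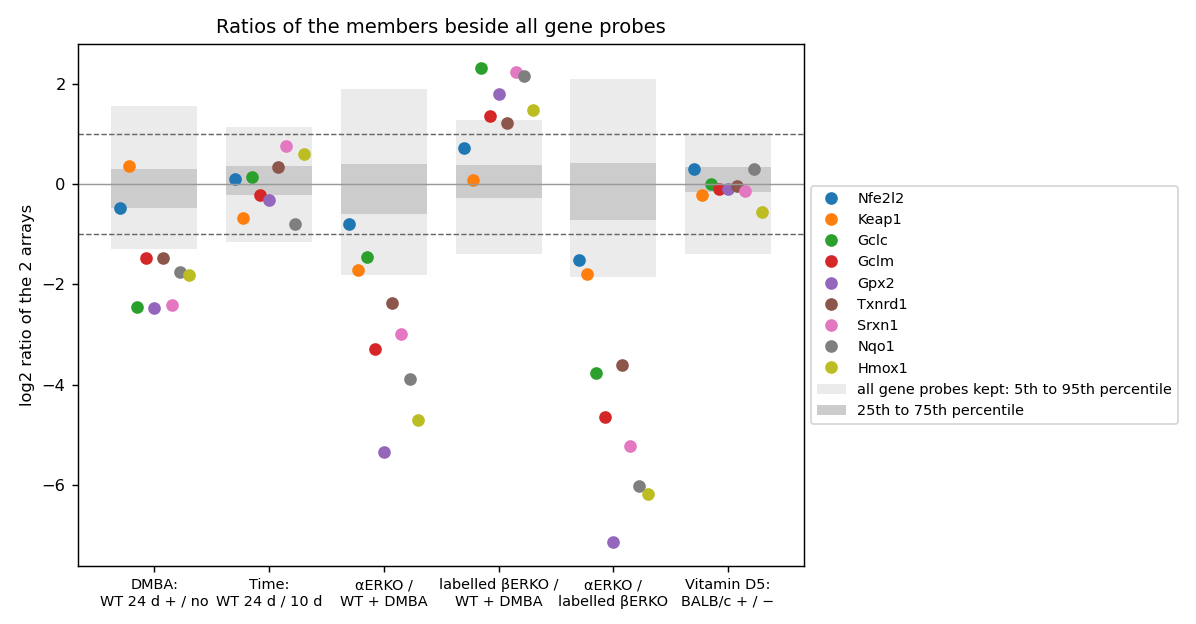
Log2 ratio (vertical axis) of each of 9 members in 6 comparisons of single arrays, with grey boxes for the 25th to 75th and the 5th to 95th percentiles of all gene probes kept and dashed lines at 2-fold. The 7 effectors lie below the lower dashed line with DMBA and in both αERKO comparisons, above the upper one for the array labelled βERKO, and inside both lines for culture time and vitamin D5.

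Another 98 genes of redox and detoxification pathways were listed by role, and 91 had a probe. Of 90 kept in the DMBA comparison, 18 were over 2-fold lower (20.0%) and 6 higher (6.67%), beside 8.46% and 10.1% of all probes, with a median of -0.26. With the array labelled βERKO put in place of the WT array with DMBA, 1 of 91 was lower (1.10%) and 11 were higher (12.1%), beside 6.90% and 8.24% of all probes, and the median was 0.18, of the opposite sign. Between αERKO and WT, 23 of 88 were lower (26.1%, beside 14.1% of all probes) and 3 higher (3.41%, beside 11.7%). On the array labelled βERKO 25 of 89 were higher than on WT (28.1%, beside 6.96%) and 2 lower (2.25%, beside 8.37%). Between αERKO and the array labelled βERKO, 38 of 89 were lower (42.7%, beside 16.6%) and 2 higher (2.25%, beside 13.5%). With culture time, 4 of 90 were higher (4.44%, beside 6.05%) and 2 lower (2.22%, beside 6.34%). With vitamin D5, 2 of 89 were higher (2.25%, beside 5.12%) and 0 lower (beside 7.06%). In the 4 comparisons where members passed 2-fold, the wider pathway thus had a smaller share past it than the members and a median nearer that of all probes.

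Conjugating and reducing enzymes form the largest list. With DMBA, 9 of 32 were over 2-fold lower (28.1%, beside 8.46% of all probes), led by the glutathione transferases Gsta2, with a log2 ratio of -5.88, and Gsta1, with -5.63, and followed by the alcohol dehydrogenase Adh7 (-3.26), Osgin1 (-2.46) and Gsta4 (-2.27). With the array labelled βERKO in the place of the one with DMBA, 0 of 32 were lower (6.90% of all probes) and 5 higher (8.24% of all probes). Gsta2 then had -0.62, Gsta1 -0.78, Adh7 -0.20, Osgin1 -0.73 and Gsta4 -0.25, all within 2-fold. Gsta1 and Gsta2 are near-identical in sequence, so their probes may not be separate measurements. The Gsta1 signal was 0.38 for αERKO, 6.63 on the array labelled βERKO, 1.78 on the WT array with DMBA, 8.36 on the WT 10-day array, 7.41 on the WT 24-day array without DMBA, 8.67 on the Balb/c array and 8.30 on the Balb/c array with vitamin D5. As with the 7 measured effectors, αERKO was lowest and the WT array with DMBA next. On the array labelled βERKO 16 of 31 were over 2-fold higher than on WT (6.96% of all probes), with Gsta2 at 5.26, Gsta1 at 4.85, Adh7 at 3.06 and the carbonyl reductase Cbr3 at 2.80. On the αERKO array 8 of 31 were lower than on WT (14.1% of all probes), with Cbr3 at -3.22, Osgin1 at -2.68 and the epoxide hydrolase Ephx1 at -2.17, while Gstm6 was higher at 1.52 and Gstm4 had 0.93. Against the array labelled βERKO, 17 of 31 were lower on αERKO (16.6% of all probes), with Gsta1 at -6.25, Cbr3 at -6.02, Osgin1 at -4.41, Adh7 at -3.59 and Ephx1 at -3.57. The αERKO signals of Gsta1 (0.38), Osgin1 (0.68) and Adh7 (0.82) were dim, so their αERKO ratios depend on how background is handled.

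Genes of glutathione use went both ways. With DMBA, the peroxidases Gpx7 (1.77) and Gpx3 (1.54) and the glutathione-degrading Ggt1 (1.51) were higher, 3 of 13 beside 10.1% of all probes. Over 2-fold lower were 4 of 13, beside 8.46%, namely Slc3a2 (-1.65), Chac1 (-1.45), Gss (-1.13) and Gsr (-1.08). With the labelled βERKO array in place of that with DMBA, 0 of 13 were lower (6.90% of all probes) and 3 higher (8.24% of all probes). Gpx7 then had 1.71, Gpx3 0.17 and Ggt1 -0.57. Gpx3, a secreted peroxidase, had a culture time log2 ratio of 4.56, higher at 24 days, while Gpx2 had -0.31, within 2-fold. On the αERKO array, glutathione reductase (Gsr, -2.09) and glutaredoxin (Glrx, -2.77) were lower than on WT, whereas Gpx1 (1.10) and Gpx3 (1.04) were higher. On the array labelled βERKO, Ggt1 (-2.07) and Gpx3 (-1.38) were lower than on WT and Glrx had -0.69, and Chac1, a glutathione-degrading enzyme of the integrated stress response, was higher (2.72). Against that array αERKO had 5 of 13 over 2-fold lower (16.6% of all probes), namely Slc3a2 (-2.91), Gss (-2.87), Gsr (-2.78), Chac1 (-2.49) and Glrx (-2.08), and 2 higher (13.5% of all probes), Gpx3 (2.42) and Ggt1 (1.20). The αERKO signals of Gsr (0.89) and Chac1 (0.51) were dim, so their αERKO ratios have the same limit.

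Among the remaining roles, thioredoxins recycle oxidized proteins and peroxiredoxins remove peroxide. The shares of all probes over 2-fold lower, to be set beside the counts that follow, were 8.46% with DMBA, 6.34% with culture time, 14.1% on αERKO against WT and 16.6% against the array labelled βERKO, and 6.96% were higher on the latter than on WT. Of 13 thioredoxin and peroxiredoxin genes, 1 was over 2-fold lower with DMBA, 0 with culture time, 2 on αERKO against WT and 5 against the array labelled βERKO, which had 1 higher than WT. With the labelled βERKO array standing in for that with DMBA, the count with DMBA was 0 of 13, as it was 0 of 8 lower for the haem and iron genes and 0 of 11 lower and 1 higher for the partners and regulators of NRF2 that follow. Under that exchange 6.90% of all probes were lower and 8.24% higher. Txnip, an inhibitor of thioredoxin, had -0.41 on the array labelled βERKO against WT and 0.68 on αERKO against that array. Of 5 genes of NADPH supply, 0 passed 2-fold in any of the 6 comparisons, and Tkt, the transketolase, had 0.88 on αERKO against WT and 0.76 against the array labelled βERKO. Of 8 haem and iron genes, 1 was lower with DMBA, 2 on αERKO against WT and 4 against the array labelled βERKO, which had 2 higher than WT. Among superoxide dismutases and catalase, the extracellular Sod3 was higher with DMBA (1.67) and with culture time (1.63), and had -0.45 on the array labelled βERKO against WT and 0.77 on αERKO against that array. Aldh1a1, an aldehyde dehydrogenase, was higher with DMBA (1.28). Of 11 measured partners and regulators of NRF2, such as small MAF proteins and the adaptor Sqstm1, 2 of 10 kept were lower with DMBA, 6 of 10 on αERKO against WT and 5 of 11 against the array labelled βERKO, which had 3 of 11 higher than WT.

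Over culture time, Adh7 and Aldh3a1 were lower at 24 days, both with -1.62, and Gsta1 (-0.95), Gstm4 (-0.86) and Gsta2 (-0.82) stayed within 2-fold, as did Gpx7 (0.82), Slc3a2 (0.76), the heavy chain that partners Slc7a11, and Osgin1 (0.76). With vitamin D5, the microsomal transferase Mgst1 was higher at 1.72, and Sod2 (0.81), Akr1b8 (0.73), Prdx4 (0.61) and Blvra (0.60) had smaller positive ratios. On the negative side of that comparison were Aldh1a1 (-0.55), Cbr3 (-0.42), Gsta1 (-0.37), Blvrb (-0.33) and Tkt (-0.32), none past 2-fold.

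**Figure D4:**
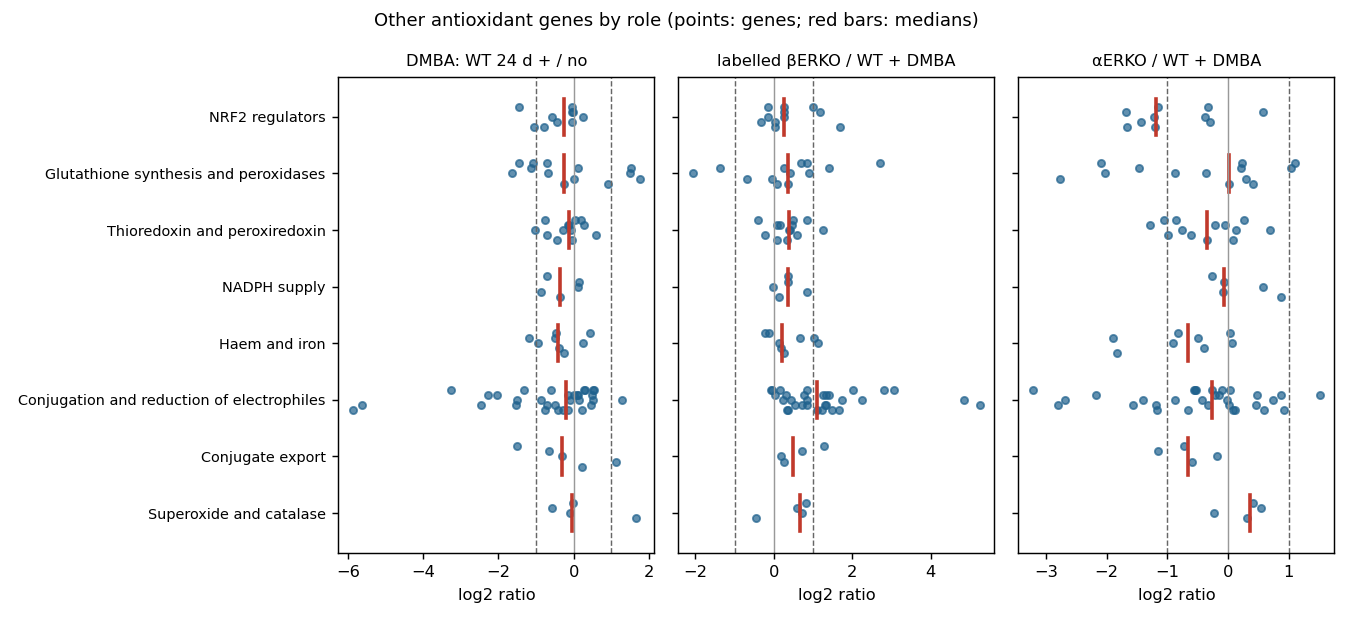
Log2 ratios (horizontal axes) of other redox and detoxification genes by role (vertical axis) in 3 comparisons of single arrays, 1 point per gene, red bars at list medians and dashed lines at 2-fold. Conjugating and reducing enzymes reach -5.88 with DMBA and 5.26 on the array labelled βERKO.

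Lists of other stress programmes were counted too. Of 8 aryl hydrocarbon receptor targets, a list that includes Nqo1, 2 were over 2-fold lower with DMBA (8.46% of all probes), 4 lower with culture time (6.34%), 2 lower on αERKO against WT (14.1%), 5 lower on αERKO against the array labelled βERKO (16.6%) and 4 higher on that array against WT (6.96%). The 2 lower with DMBA were Nqo1 (-1.75), a member, and Aldh3a1 (-1.54), which is also on the list of conjugating and reducing enzymes. The other 6 lay within 2-fold, between -0.58 (Cyp1b1) and 0.58 (Cyp1a2), and Cyp1a1 had -0.03. The cytochrome P450 genes Cyp1a1 and Cyp1b1, whose products oxidize polycyclic hydrocarbons, had culture time log2 ratios of -2.06 and -1.83. Cyp1b1 had -2.93 on αERKO against WT and -4.84 against the array labelled βERKO, and Cyp1a1 had 2.86 on the latter against WT. With vitamin D5, Cyp1a2 had -0.42.

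Of 19 measured genes of the integrated stress response, 8 were over 2-fold lower with DMBA (8.46% of all probes) and 1 higher, 9 lower (14.1%) and 0 higher on αERKO against WT, 12 lower (16.6%) and 2 higher on αERKO against the array labelled βERKO, and 4 higher (6.96%) and 1 lower on that array against WT. With the labelled βERKO array in place of that with DMBA, 1 of 19 was lower here (5.26%) and 2 were higher (10.5%). Of the 8 aryl hydrocarbon receptor targets 0 were then lower and 3 higher (37.5%). Of all probes, 6.90% were lower and 8.24% higher under that exchange. Gdf15, a secreted stress cytokine, had the lowest αERKO ratio of the listed genes other than members that were good on both arrays. It had -4.72 against WT and -7.89 against the array labelled βERKO, and 3.17 on the latter against WT. The αERKO signal of Gdf15 was dim, at -0.86, below the median of its array, so both αERKO ratios share the limit of dim spots. The serine synthesis gene Phgdh had -0.94 on the array labelled βERKO against WT and 1.29 on αERKO against that array, and Vldlr had -0.50 on the array labelled βERKO against WT. With culture time, the transcription factor genes Atf3 (1.18) and Ddit3 (0.87) and the stress gene Nupr1 (0.89) had positive ratios, and with vitamin D5 Fgf21 had -0.99. The part of either programme in the members' values was not tested.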

How the data were processed

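Total RNA of cultured mammary glands was measured on 7 CodeLink arrays, 1 per group. The authors scanned the arrays and used the CodeLink software, and the deposited intensity of a spot is its mean signal after subtraction of the local background median, together with a quality flag. Intensities were divided by the array's median over gene probes, as in the study's methods, a floor was set at the lowest positive value, and log2 was taken. The series table, which names no probes, was not used, and 0 columns of other samples were found. Probes were named through RefSeq (GRCm38.p6), which matched 14763 of 15553 probes with a RefSeq accession. The deposited files name no genome build.

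Ratios were counted past 2-fold among probes good on 1 or both arrays, and no test was possible. The members and lists were chosen with earlier results of these data known. The genes named are the members, the 5 highest and 5 lowest genes per comparison, among probes good on both arrays, of all pathway lists and, added after values were seen, of the redox and detoxification lists alone, Esr1 and Esr2, and the 3 genes nearest to the members of widest range, of which 1 is not reported here. Of several probes for a gene, the brightest was taken. Other listed genes are named where a count of 5 or fewer is spelled out. Alternatives were quantile normalization, the 75th percentile, the deposited normalized intensities, normexp with an offset of 50, another floor, the mean over probes, and thresholds of 3-fold and 1.5-fold. The counting was tested on simulated data. Python 3.11.15, pandas 2.3.3, R 4.3.3 and limma 3.58.1 were used. The number of arrays limits the precision.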

Additional observations from a re-analysis of the deposited data

How the results depend on the processing

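Of the 54 log2 ratios of members (9 members in 6 comparisons), 0 crossed 2-fold under quantile normalization, the 75th percentile, the deposited normalized intensities or normexp with an offset of 50. A floor at the lowest good value and the mean over probes could not move them, as each member has 1 probe above that floor. The sign changed for 4 ratios under quantile normalization, 2 under normexp and 1 under the 75th percentile, none of them over 2-fold. The largest move was 1.20, under normexp, for the ratio of Gpx2 on αERKO to the array labelled βERKO. The number of members counted moved with the threshold. With culture time 4 members passed 1.5-fold, where 0 passed 2-fold. Between the array labelled βERKO and WT 4 passed 3-fold, where 7 passed 2-fold. No share of all probes is given at 1.5-fold or 3-fold beside these counts. With the array labelled βERKO in place of the WT array with DMBA, chosen after seeing the data, 0 members were over 2-fold in the DMBA comparison, their median was -0.14 and Nqo1 and Nfe2l2 (-0.47) turned to 0.40 and 0.25. Over all probes, the 75th percentile turned the αERKO split against the array labelled βERKO to 16.2% higher and 12.8% lower, from 13.5% and 16.6%, and that against WT to 13.5% higher and 11.8% lower, from 11.7% and 14.1%, and normexp reduced the shares over 2-fold to between 0.236% and 7.16%. No paired analysis was possible because each group has 1 array, and no replicate could be left out. Among the members, dim signals limit the αERKO values of Gpx2, Nqo1 and Srxn1, with intensities of 38, 54 and 75 over a local background of 81. Listed genes with dim αERKO signals, among them Gsta1, Osgin1, Adh7, Gsr, Chac1 and Gdf15, share that limit. No normexp ratio is given for them.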

Other observations

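For both members of widest range, the genes with the most similar signal over the 7 arrays were looked up among 9337 genes good on all of them. For Gpx2 these were Gclm, itself a member, with a Pearson r of 0.9964, Plet1 (0.9952), a membrane-anchored protein, and Sap30 (0.9939), a subunit of a histone deacetylase complex. For Hmox1 they included the metallothionein gene Mt1 (0.9984) and the lipid droplet gene Plin2 (0.9932). Mt1 had log2 normalized intensities of 7.56 on the αERKO array, 8.96 on the WT array with DMBA and between 9.07 and 9.38 on the others, and Plin2 had 5.25 on αERKO and 7.58 on the WT array with DMBA. These correlations are over 7 arrays that share the αERKO point. Over the 36 pairs of members, r lay between 0.712 and 0.996 with a median of 0.954, and without the αERKO array between -0.231 and 0.979 with a median of 0.708.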
